A study of Homo sapiens with 12 samples.

Results

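The probes described here set a pair of arrays apart within a knockdown experiment. They are the 150 probes, for 145 genes, whose signal in the knockdown samples numbered 2 and 6 stood furthest above all 10 other arrays of the series. They were taken from 8926 eligible probes, those with 1 gene symbol and a mean signal of at least 400, out of 47323 probes on the array. The members were chosen by the measured values themselves. For each eligible probe the lower of knockdown 2 and knockdown 6 was taken on the log2 scale of the authors' quantile-normalised intensity, the highest of the other 10 arrays was subtracted, and the 150 probes with the largest such gap were kept. How far knockdown 2 and 6 lie above the rest is therefore a description and was not tested.

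The cells were PANC-1, an established human cell line derived from a ductal carcinoma of the pancreas, profiled on 12 Illumina bead arrays. The 6 control samples, called wild type in the titles, carried an integrated empty pLKO.1 puromycin vector, and the 6 knockdown samples carried the same vector with a hairpin RNA against TIMP1, a secreted inhibitor of matrix metalloproteinases. Every sample was grown in DMEM with fetal calf serum under puromycin selection, so the vector and the drug were common to both groups. The labels do not say whether replicates came from separate cultures, nor how many clones or hairpins were used, so the spread behind each p-value may be purely technical.

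Some of the members belong to programmes that cells use to follow their nutrient supply and growth state. Shortage of amino acids, or stress in the endoplasmic reticulum, slows general translation through phosphorylation of eIF2 while raising the transcription factor ATF4, which switches on genes of amino acid synthesis and import. NF-kB drives inflammatory cytokines and chemokines, which carcinoma cells of the pancreas can release without immune cells. FoxO factors raise genes that restrain growth when growth factor signalling is low, and the glucocorticoid receptor raises a set of its own.

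The target of the hairpin did not separate knockdown 2 and 6 from the other knockdown arrays. TIMP1, on the X chromosome, read between 13.66 and 13.87 (median 13.76) in the controls on the log2 scale of the authors' values. It read 13.65, 13.58, 13.56 and 13.51 in knockdown 1, 3, 4 and 5, against 13.62 in knockdown 2 and 13.52 in knockdown 6. The knockdown arrays all lay below the controls, and knockdown 2 and 6 lay inside the range of the other 4. Among the 10 arrays without knockdown 2 and 6 the log2 difference, knockdown minus control, was -0.19 ± 0.05 (SE, n = 4 and 6), with an adjusted p of 0.244 in the limma fit across all detected probes. An exact two-sided permutation test of the single gene gave p = 0.00476, the smallest value that 210 assignments allow.

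The 4 members with the largest gap and a promoter in the RefSeq table are PLAC8, ASNS, CCL20 and CEMIP, and their promoters are shown because these genes lead the set. Each runs from 250 bases before to 50 bases after the annotated start, on the strand of the gene, in assembly GRCh38.p14. PLAC8 lies at chr4:83114680-83114979 (minus strand), ASNS at chr7:97872359-97872658 (minus), CCL20 at chr2:227813592-227813891 (plus) and CEMIP at chr15:80779120-80779419 (plus). Capitals mark matches to the motifs named after them.
PLAC8: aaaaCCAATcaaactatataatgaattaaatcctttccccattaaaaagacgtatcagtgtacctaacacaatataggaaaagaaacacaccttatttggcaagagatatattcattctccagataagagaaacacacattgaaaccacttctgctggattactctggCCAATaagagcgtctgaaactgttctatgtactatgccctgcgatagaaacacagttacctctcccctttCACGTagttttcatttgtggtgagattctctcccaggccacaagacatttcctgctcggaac
ASNS: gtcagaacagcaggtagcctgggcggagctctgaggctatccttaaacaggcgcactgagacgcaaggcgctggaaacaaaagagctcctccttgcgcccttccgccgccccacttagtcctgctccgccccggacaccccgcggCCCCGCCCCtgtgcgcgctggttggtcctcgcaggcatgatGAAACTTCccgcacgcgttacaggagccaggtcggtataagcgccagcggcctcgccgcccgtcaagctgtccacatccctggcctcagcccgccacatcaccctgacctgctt
CCL20: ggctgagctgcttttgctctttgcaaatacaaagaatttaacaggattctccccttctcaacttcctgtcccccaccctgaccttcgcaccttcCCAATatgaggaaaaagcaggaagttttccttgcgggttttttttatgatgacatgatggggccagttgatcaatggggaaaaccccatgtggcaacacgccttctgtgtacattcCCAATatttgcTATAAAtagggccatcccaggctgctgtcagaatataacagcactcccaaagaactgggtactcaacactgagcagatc
CEMIP: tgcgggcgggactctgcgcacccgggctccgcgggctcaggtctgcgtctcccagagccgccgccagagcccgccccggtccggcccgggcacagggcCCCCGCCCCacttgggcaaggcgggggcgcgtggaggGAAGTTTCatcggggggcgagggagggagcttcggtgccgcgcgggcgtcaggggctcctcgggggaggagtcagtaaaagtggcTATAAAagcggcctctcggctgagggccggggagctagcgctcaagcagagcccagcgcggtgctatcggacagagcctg
Position -1 is the base before the start. Only exact motif letters were marked, and binding was not tested. In ASNS the stretch TGATGAAA, which overlaps the heat shock match, is close to the ATF4 or C/EBP motif TGATGCAA but was not counted. PLAC8 held CCAAT at -246 and -82 and the hypoxia core ACGTG at -12, ASNS held the SP1 box GGGGCGGGG at -105 and the heat shock pair GAANNTTC at -64, CCL20 held CCAAT at -156 and -40 and the TATA box TATAAA at -29, and CEMIP held the SP1 box at -152, the heat shock pair at -115 and TATAAA at -30.

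Of the 145 member genes, 120 had a promoter in the table, and 13 motifs were read on both strands of each. No motif is contained in another, although matches may share bases. TATAAA lay in 12.5% of the members' promoters, against 5.44% of those of 5958 eligible genes and 11.95% of all 27305 promoters. AP-1 (TGACTCA) lay in 6.67%, 2.89% and 4.92% in the same order, with IL1A, CXCL8, ITGA5 and CD14 among the 8 member genes holding it. The ETS motif CCGGAAGT went the other way, with 2.5% of the members' promoters against 10.1% of the eligible and 4.44% of all. These shares describe letters in a window and say nothing of factor binding.

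For the remaining motifs the shares are given in the same order of members, eligible genes and all promoters. CCAAT lay in 44.2%, 37.6% and 35.7%, GGGGCGGGG in 30.0%, 28.4% and 15.99%, and ACGTG in 25.8%, 29.0% and 21.6%. AAGATGGC (YY1) lay in 6.67%, 6.53% and 3.03%, GAANNTTC in 4.17%, 4.60% and 6.87%, and GCGCATGCG (NRF1) in 2.5%, 4.43% and 2.10%. The rarer motifs rest on few promoters. TGACGTCA (CRE), TGATGCAA (ATF4 or C/EBP) and TTTCGCGC (E2F) each lay in 1.67% of the members' promoters, against 3.64%, 0.587% and 1.28% of the eligible and 1.98%, 0.923% and 0.546% of all. NF-kB (GGGACTTTC or GGGAATTTC) lay in 0.833%, 0.789% and 0.707%, a single member gene, CACNG6. Only these exact letters were searched, so other forms of the site were not counted.

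The differences that chose the set were small on the fold scale and close to each other in the pair of arrays. The gap of the members ranged from 0.12 to 0.52 with a median of 0.16 on the log2 scale, and the mean of knockdown 2 and 6 was between 1.14 and 1.82 times that of the controls, with a median of 1.25. A fold of at least 1.5 was reached by 8 members and a fold of at least 1.2 by 115. At the limit of the set, GPSM3 and NIPSNAP1 lay just inside with gaps of 0.125 and 0.1249, and SEC14L1 and AKAP12 just outside with 0.1246 each. For comparison, 1100 of 8926 eligible probes (12.3%) had a gap above 0.

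Knockdown 2 was the higher of the pair for 71 of the 150 members. The median absolute difference between the pair was 0.04 for the members and 0.08 over all eligible probes, a closeness that the rule favours because it takes the lower of both. All 150 members were detected (p under 0.05) on all 12 arrays, and 148 were protein-coding. Their mean signal ran from 402.6 to 10532.

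**Figure D1:**
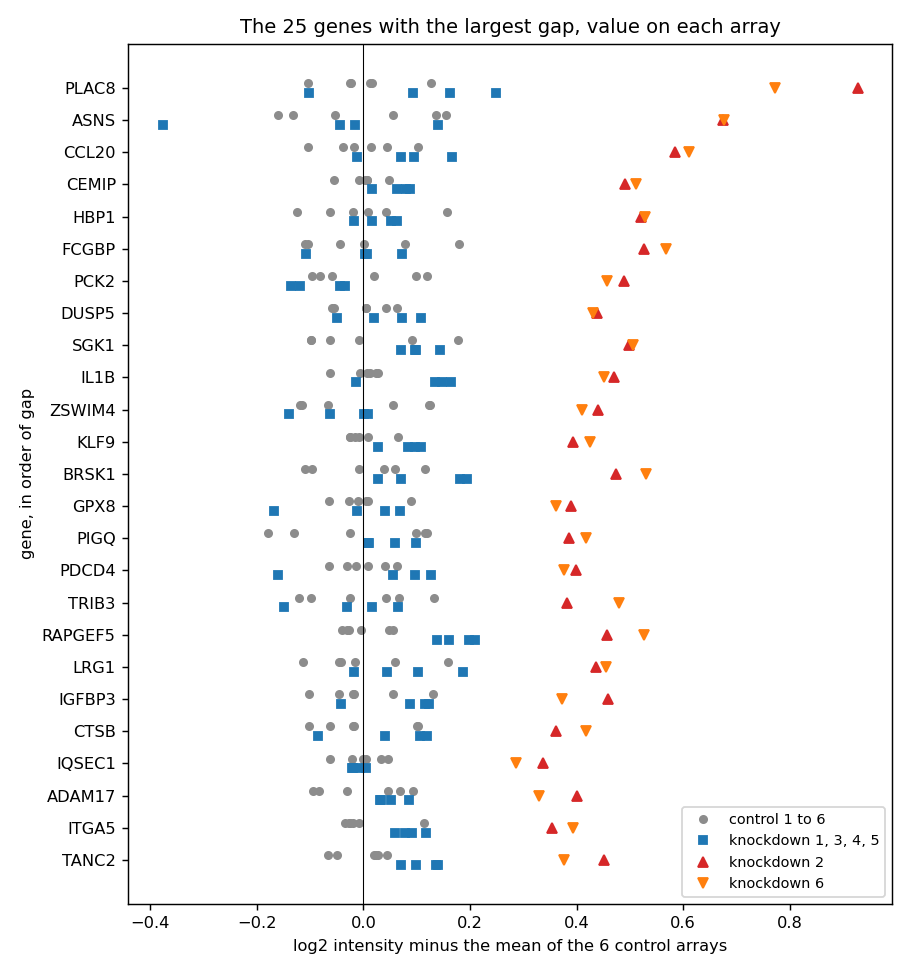
Log2 intensity minus the mean of the 6 control arrays for the 25 genes with the largest gap, 1 probe per gene, with one point per array: grey circles for controls, blue squares for knockdown 1, 3, 4 and 5, and triangles for knockdown 2 (red) and knockdown 6 (orange). The triangles lie to the right of every other point in each row, as the choice of members requires, and the blue squares lie among or close to the grey circles.

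The gene with the largest gap was PLAC8, a small cysteine-rich protein that is made in pancreatic carcinoma. Its leading probe read between 10.90 and 11.13 (mean 11.01 ± 0.08, SD, n = 6) in the controls and 11.26, 11.17, 10.90 and 11.10 in knockdown 1, 3, 4 and 5. It read 11.93 in knockdown 2 and 11.78 in knockdown 6, which is 1.80 times the controls. The other 4 knockdown arrays overlapped the controls on that probe, but not on its second member probe, where they read 11.39, 11.42, 11.30 and 11.34 above controls of 11.05 to 11.18.

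Genes of the ATF4 programme formed one named group. The stress list, which joins the unfolded protein response with the integrated one, had 46 eligible probes, of which 9 (8 genes) were members, and 20 (43.5%) had a gap above 0, against 12.3% of all eligible probes. Its median difference between the pair and the other 10 arrays was 0.13, against 0.01 over all eligible probes. The list was drawn up with earlier results of these data known, so its count is a description.

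ASNS, asparagine synthetase, makes asparagine and is a standard readout of ATF4. Its leading probe read between 11.05 and 11.36 (median 11.21) in the controls and 11.35, 11.19, 10.83 and 11.16 in knockdown 1, 3, 4 and 5. It read 11.88 in both knockdown 2 and knockdown 6, 1.60 times the controls. Knockdown 4 was the lowest of the 12 arrays for this gene, so the knockdown group held both its lowest and its highest values. The second ASNS probe was also lowest in knockdown 4, at 9.12, and read 9.85 and 9.75 in knockdown 2 and 6.

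TRIB3, a pseudokinase that dampens ATF4 signalling, read 11.42 to 11.68 (median 11.55) in the controls, 11.56, 11.61, 11.51 and 11.40 in knockdown 1, 3, 4 and 5, and 11.93 and 12.02 in knockdown 2 and 6. DDIT4, an inhibitor of the growth kinase mTORC1, read 12.57 to 12.87 (median 12.73) in the controls, 12.71, 12.70, 12.29 and 12.49 in knockdown 1, 3, 4 and 5, and 13.28 and 13.10 in knockdown 2 and 6. For DDIT4, too, knockdown 4 was the lowest array, while for TRIB3 knockdown 5 was. TXNIP, which binds thioredoxin and limits glucose uptake, read 11.66 and 11.37 in knockdown 2 and 6, and 10.95 to 11.14 over the other 10 arrays.

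The other members of the list, named after their values were seen except for GDF15, included enzymes of serine synthesis and ATF4 itself. PHGDH, the first enzyme of the pathway, read 13.56 and 13.43 in knockdown 2 and 6, and 13.07 to 13.28 in the rest. PSAT1, the next enzyme, read 11.43 and 11.38, and 11.03 to 11.21 in the rest. Both serine enzymes stood about 1.2-fold above the controls, at 1.19 and 1.21. One ATF4 probe was a member, with 10.13 and 10.20 against 9.83 to 10.00 in the rest, and the brighter ATF4 probe had a gap of 0.09, short of the limit. GDF15, a secreted stress hormone, read 11.93 and 11.59 in the pair and at most 11.46 elsewhere.

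The chaperones of the endoplasmic reticulum were not among the members. HSPA5, the main one, had a pair-minus-rest difference of 0.15 with a gap of -0.03, HSP90B1 had 0.03, and CALR 0.02. ATF5, a transcription factor of the same response, had the lowest value of the list. It read 9.99 and 10.26 in knockdown 2 and 6 and 10.40 to 10.79 in the others, a difference of -0.51. These genes were picked from the list after their values were seen.

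**Figure D2:**
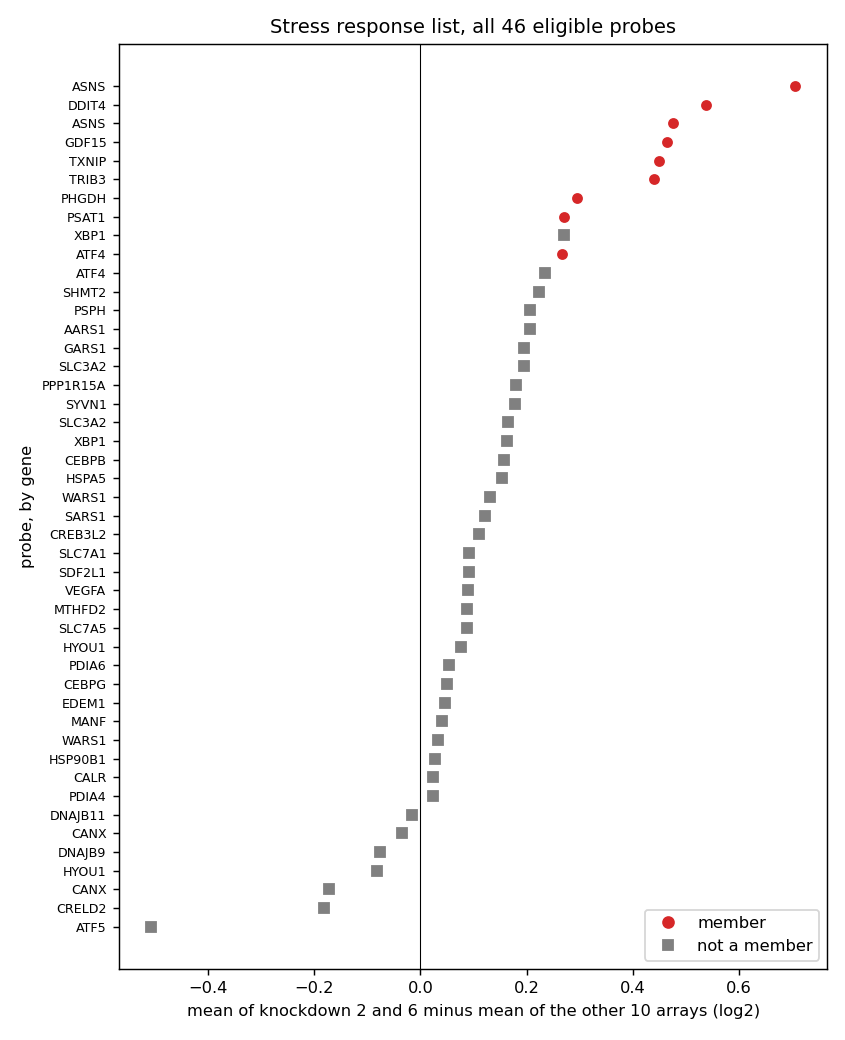
Mean of knockdown 2 and 6 minus the mean of the other 10 arrays (log2) for all 46 eligible probes of the stress response list, 1 row per probe; red circles are members and grey squares are not. ASNS and DDIT4 lie furthest to the right and ATF5 furthest to the left at -0.51.

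Enzymes listed under amino acid breakdown were also present. PCK2, the mitochondrial form of phosphoenolpyruvate carboxykinase, read 8.90 to 9.12 (median 8.98) in the controls, 8.95, 8.96, 8.88 and 8.86 in knockdown 1, 3, 4 and 5, and 9.49 and 9.46 in knockdown 2 and 6. It stood with BCKDHA and DBT, subunits of the complex that breaks down branched-chain amino acids, at 1.27 and 1.18 times the controls, and ARG2, mitochondrial arginase, at 1.17. A list of amino acid breakdown, added after values were seen, held these 4 members among 24 eligible probes. YARS1, the tyrosyl-tRNA synthetase, was the only member among 33 eligible probes of aminoacyl-tRNA synthetases, with 12.67 and 12.66 in the pair and 12.31 to 12.49 in the rest.

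The second named group was the list of NF-kB targets, cytokines and chemokines. Of its 55 eligible probes 7 were members, 16 (29.1%) had a gap above 0, and the median difference between the pair and the rest was 0.07. The members were CCL20, IL1B, SAA1, IL1A, IL13RA2, CEBPD and CXCL8, the last 3 of which were named after their values were seen.

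CCL20, the ligand of the chemokine receptor CCR6, read 11.10 to 11.31 (median 11.21) in the controls, 11.38, 11.30, 11.20 and 11.28 in knockdown 1, 3, 4 and 5, and 11.79 and 11.82 in knockdown 2 and 6. IL1B, a cytokine made as an inactive precursor, read 13.03 to 13.12 (median 13.10) in the controls, 13.23, 13.26, 13.08 and 13.24 in the other 4 knockdown arrays, and 13.56 and 13.54 in the pair. IL1A, which signals through the same receptor, read 13.004 and 12.93 in the pair and 12.57 to 12.73 elsewhere. For IL1B knockdown 1, 3 and 5 also lay above every control, with knockdown 4 inside their range, whereas for IL1A the 4 arrays overlapped the controls.

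CXCL8, a chemokine for neutrophils, was among the brightest members, with 13.55 and 13.57 in the pair and 13.25 to 13.41 in the rest, 1.18 times the controls. Its brighter second probe had a difference of only 0.01 between the pair and the other 10 arrays, with a gap of -0.14, so the CXCL8 probes disagreed. SAA1, an acute-phase protein, read 10.20 and 10.13 in the pair. Its other 4 knockdown arrays, at 9.84, 9.79, 9.83 and 9.91, lay above all controls (9.55 to 9.76). The brighter second SAA1 probe had a difference of 0.30 between the pair and the rest, with a gap of -0.05. LRG1, a secreted glycoprotein of the acute phase outside this list, read 9.30 and 9.32, and 8.75 to 9.05 elsewhere. CXCL3, a chemokine related to CXCL8, lay on the opposite side, with 8.76 and 8.55 in the pair and 9.12 to 9.62 in the rest.

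Leukocyte markers were read beside the cytokines. Of 6 such markers with a named probe, CD14 and CD68 were detected, while PTPRC, CD3E and ITGAM were detected on 0 arrays and LYZ on 4 of 12. The summed signal of that list was 3065 to 3337 in the controls, 3116 to 3272 in the other 4 knockdown arrays, 3591 in knockdown 2 and 3542 in knockdown 6. CD14, a co-receptor for bacterial lipopolysaccharide, is itself a member, at 10.96 and 10.81 in the pair and 10.52 to 10.68 elsewhere. CD68 read 9.76 and 9.94 in the pair, inside the 9.70 to 10.00 of the other arrays. LYZ, dim on every array, read 8.02 and 8.09, and 7.74 to 8.01 elsewhere. In bulk RNA, more cells of a type and more RNA per cell cannot be told apart, and the part of other cells in the cytokine values was not tested. Of 4 endothelial markers PECAM1 was detected on 12 arrays, CDH5 on 2, and VWF and KDR on 0. CDH5, dim on every array, read 7.88 and 7.90 in the pair and 7.21 to 7.48 elsewhere. The summed signal of the 4 endothelial markers was 1322 and 1255 in the pair and 973.8 to 1132 in the rest. Fibroblast and stellate markers summed to 1986 and 2102, and to 1895 to 1973 in the rest. Erythroid markers were lower, at 529.7 and 519.5 against 567.1 to 679.9. Acinar and islet markers, at 4407 and 4197, lay inside the range of the rest, 3922 to 4760. Few markers of these lists were detected. The epithelial markers KRT7, KRT8, KRT18, KRT19 and EPCAM, and the mesenchymal marker VIM, were detected on all 12 arrays. Their summed signal was 23970 in knockdown 2 and 22790 in knockdown 6, and 22110 to 23630 in the rest.

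The third group was read from genes raised by FoxO factors or glucocorticoid, and other growth-arrest genes. This list was added after values were seen, partly because such genes led the set, so its count describes the choice. Of its 33 eligible probes 14 (12 genes) were members, and 22 (66.7%) had a gap above 0. DDIT4 and TXNIP, among these members, were already counted in the stress list, so the groups are not separate.

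SGK1, a kinase induced by serum and glucocorticoid, was the only gene with 3 member probes. On its leading probe the controls read 11.75 to 12.03 (median 11.81), knockdown 1, 3, 4 and 5 read 11.92, 11.95, 11.95 and 11.99, and knockdown 2 and 6 read 12.35 and 12.36. KLF9, a glucocorticoid-induced repressor, read 9.87 to 9.96 (median 9.89) in the controls, 9.92, 10.00, 9.99 and 9.98 in the other 4, and 10.29 and 10.32 in the pair. The other 10 arrays spanned less for KLF9 than its gap of 0.29. HBP1, a repressor that holds cells in G1, read 9.11 and 9.12 in the pair and 8.46 to 8.74 in the rest.

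PDCD4, an inhibitor of translation that growth factor signalling removes, read 11.23 and 11.21 in the pair and 10.67 to 10.96 elsewhere, again lowest in knockdown 4. KLF2, a FoxO target, stood at 1.27 times the controls, and YPEL5, TSC22D3, RBL1 and BCL6 at 1.27, 1.24, 1.22 and 1.23. The last 4 were named after their values were seen. CDKN1A, the inhibitor p21 of cyclin-dependent kinases, read 9.98 and 9.92 in the pair. For CDKN1A the other 4 knockdown arrays, at 9.61, 9.67, 9.71 and 9.64, all lay above the controls (9.41 to 9.53).

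Not every gene of this kind was high. Of the same list, FKBP5, a glucocorticoid target, read 10.43 and 10.51 in the pair and 10.36 to 10.61 in the rest, and CDKN1B, the inhibitor p27, read 9.63 and 9.62 on its brighter probe and 9.47 to 9.80 in the rest. GADD45A, a growth-arrest gene, read 9.64 in knockdown 2 but 9.29 in knockdown 6 on its brighter probe, where the rest lay between 9.57 and 9.95. These 3 were picked after their values were seen.

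**Figure D3:**
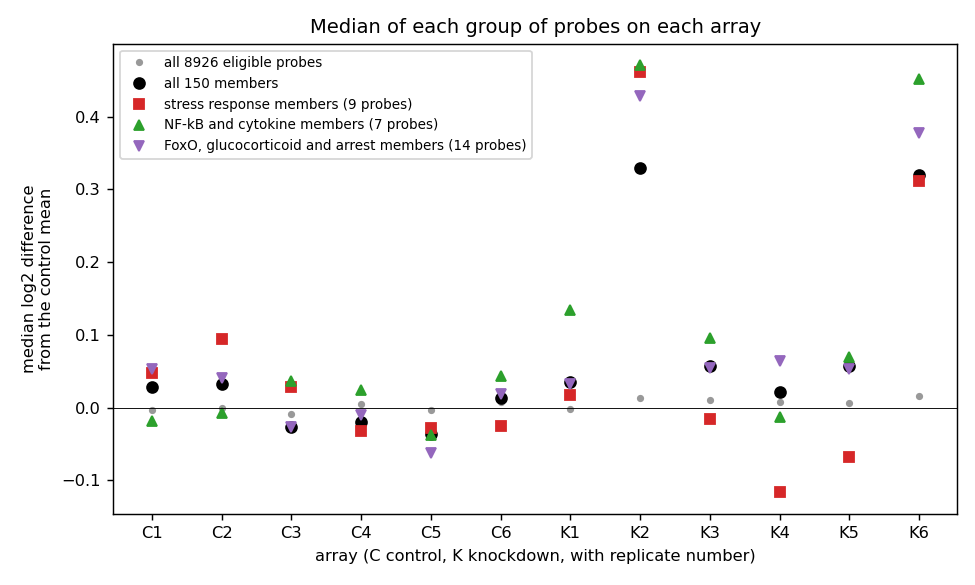
Median log2 difference from the control mean on each array (C1 to C6 control, K1 to K6 knockdown) for all eligible probes, all 150 members and the members of 3 lists. DDIT4 and TXNIP count among both the stress response and the arrest members. All member groups peak at K2 and K6, where the 150 members had medians of 0.33 and 0.32, and the stress response members were lowest at K4, at -0.12.

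The medians of these groups also varied among the other 10 arrays. The stress response members had a median of 0.46 in knockdown 2 and 0.31 in knockdown 6, and lay at -0.12 in knockdown 4 relative to the control mean. The NF-kB members had 0.47 and 0.45, and the arrest members 0.43 and 0.38. Over the 10 other arrays the median correlation between member probes was 0.18, against 0.01 between eligible probes, as a description across arrays that share their handling and signal scale. The rule drew on these 10 arrays and took only probes high in the pair, and 4 genes gave several member probes. This correlation is therefore not independent of the choice.

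Further members had roles at the cell surface and in signalling. CEMIP, which binds and degrades hyaluronan, read 9.83 to 9.94 (median 9.89) in the controls, 9.91, 9.95, 9.98 and 9.97 in knockdown 1, 3, 4 and 5, and 10.38 and 10.40 in the pair. DUSP5, a phosphatase that switches off ERK in the nucleus, read 12.25 and 12.24 in the pair and 11.76 to 11.92 in the rest. FCGBP, a mucin-like protein of epithelial surfaces, read 10.70 and 10.75, and 10.07 to 10.36 in the rest. Each of these lay clear of all 10 other arrays by at least 0.32.

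IGFBP3, which binds insulin-like growth factors, stood at 1.33 times the controls, ADAM17, the sheddase that releases TNF and EGF receptor ligands, at 1.29, and ITGA5, a fibronectin receptor subunit, at 1.30. The second eligible probes of IGFBP3 and ADAM17 had pair-minus-rest differences of 0.12 and 0.05, with gaps of -0.17 and -0.19. CTSB, a lysosomal cysteine protease, stood at 1.31 on its member probe but had a difference of 0.04 and a gap of -0.15 on its second eligible probe. The autophagy genes WIPI1 and MAP1LC3A stood at 1.17 and 1.21. RAPGEF5 and IQSEC1, exchange factors for small GTPases, stood at 1.41 and 1.24. The remaining genes among the first 25, ZSWIM4, BRSK1, GPX8, PIGQ and TANC2, lay between 1.30 and 1.42 times the controls.

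Over all eligible probes the share of members was 1.68%, beside which the other lists are read. The immediate early list held 7 of 51 eligible probes (13.7%), for 5 genes, among them DUSP5, SGK1 and KLF9, and 25.5% of it had a gap above 0. Its members SGK1, KLF9 and KLF2 were already counted in the third group. The hypoxia and glycolysis list held 4 of 59 (6.78%), DDIT4, TXNIP, the glucose transporter SLC2A3 and the secreted hormone STC1, with a median difference of -0.01 over the list. DDIT4 and TXNIP were already counted in the stress list and the third group. The p53 list held 2 of 24 (8.33%), CDKN1A, also of the third group, and GDF15, also of the stress list. Actin and adhesion genes held 4 of 157 (2.55%), with ITGA1, RAC3 and ARHGAP27 beside ITGA5, and solute carriers held 5 of 159 (3.14%), with SLC41A3 and SLC16A5 at 1.19 and 1.26 times the controls. The interferon-stimulated list held ISG20 and HERC5 among 32 (6.25%), and DNA repair held MRE11 and FANCG among 60 (3.33%). Ubiquitin enzymes held KLHL3, KLHL8 and FBXL20 among 222 (1.35%) and vesicle traffic held STX5 and GOLGA2 among 241 (0.83%), both below the share over all eligible probes.

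One or a few members stood in the lists of chaperones and heat shock proteins (DNAJC12 and BAG6, of 76), MAP kinase genes (MAP2K3 beside DUSP5, of 141), the TGF-beta pathway (SMAD6, of 21), S100 proteins (S100A8, of 27), ribosomal proteins (RPL39L, of 115) and noncoding RNAs (LINC00294, of 55). There were 0 members among 92 eligible probes of DNA replication, 97 of mitosis, 90 of ribosome biogenesis, 153 of the spliceosome, 98 of the respiratory chain and 59 of the proteasome. At the share of 1.68% over all eligible probes, lists of these sizes would hold few members, so nothing is read from these counts of 0. Of the 150 members, 60 stood in at least 1 of 43 lists and 90 in none of them. That count leaves out the 2 lists added after values were seen, of arrest genes and of amino acid breakdown. Members outside all lists, picked after their values were seen, included the epithelial transcription factor ELF3 at 1.19 times the controls, the sodium channel subunit SCNN1A at 1.26, and the sterol and lipid handling genes ABCG1 and OSBPL5 at 1.25 and 1.30.

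Whether other probes of the same genes moved too was checked on measurements that the choice did not rank into the set. There were 68 other detected probes for 48 of the member genes, and the mean of the pair lay above that of the other 10 arrays for 61 of them. Among the 37 that were eligible, 33 lay above, against 54.4% of all eligible probes, with a median difference of 0.16 where the members had 0.31. Only 15 of the 37 had a gap above 0. Those with the pair below the rest were probes of KLHL8, MRE11, OXLD1 and RPL39L, at -0.02, -0.02, -0.10 and -0.05, so the probes of these genes disagreed. All these other probes read the same RNA samples, so they check the probe and not the sample.

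The rule did not set the other 4 knockdown arrays against the 6 controls, since it treated those 10 arrays alike. The highest of the 10 did enter the gap, however, and both chosen arrays are knockdown arrays. Counts of members in this comparison are therefore not independent of the choice. Between the 4 knockdown arrays and the controls limma found 2 of 16495 detected probes at an adjusted p under 0.05 (0.0121%), and neither was a member. The smallest adjusted p among members was 0.141, shared by the second PLAC8 probe, at 0.25 ± 0.04 (log2, SE, n = 4 and 6), and COL8A1, a short-chain collagen, at 0.36 ± 0.06. At an unadjusted p under 0.05 limma had 36 members higher and 2 lower, where 5.84% of all detected probes were higher and 4.19% lower.

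The 2 lower, named after their values were seen, were PHGDH at -0.11 and SIN3A, a scaffold of histone deacetylase complexes, at -0.09. The median log2 difference of the 150 members was 0.04, against 0.01 over all eligible probes, and 101 members (67.3%) lay above 0, against 53.9%. The genes with the largest gaps lay on both sides of 0: the leading probe of PLAC8 had 0.11 ± 0.07, ASNS -0.08 ± 0.11, CCL20 0.09 ± 0.05 and CEMIP 0.07 ± 0.04, with limma adjusted p values from 0.523 to 0.836. IL1B had 0.11 ± 0.04 and KLF9 0.09 ± 0.04, with adjusted p values of 0.449 and 0.439 in the same fit. Of the stress response members TRIB3 had -0.03 ± 0.06 and DDIT4 -0.18 ± 0.10.

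By overlap, 21 members had knockdown 1, 3, 4 and 5 above all 6 controls, where 192 of the 8926 eligible probes (2.15%) did, and 1 member, SIN3A, had them below, where 1.43% did. These 22 members became 7 when the raw signal was scaled by each array's median, namely PLAC8, RAPGEF5, SAA1, CDKN1A, COL8A1, ITGA1 and DNAAF3. The 21 also included, named after their values were seen, the homeobox genes PRRX2 and HOXB6, ADA, which breaks down adenosine, SLC2A3, HERC5, a ligase for the ubiquitin-like ISG15, and ALOX5AP, needed for leukotriene synthesis. These last genes were not among the 7 that kept the separation with median scaling. In all 21 members the pair lay above the other 4 knockdown arrays, as the rule requires, and none passed the limma test.

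COL8A1 read 11.02 to 11.18 (median 11.08) in the controls, 11.24, 11.46, 11.49 and 11.53 in knockdown 1, 3, 4 and 5, and 11.79 and 11.69 in knockdown 2 and 6. IL13RA2, a decoy receptor for interleukin 13, read 9.88 to 10.24 (median 9.93), then 10.24, 10.52, 10.44 and 10.36, and 10.69 and 10.71 in the pair. S100A8, a calcium-binding alarmin, read 8.19 to 8.70 (median 8.32), then 8.62, 8.99, 8.93 and 9.0001, and 9.20 and 9.23 in the pair. In these 3 genes the other 4 knockdown arrays lay mostly between the controls and the pair, and control 6, at 8.70, stood apart from the other controls for S100A8.

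With all 12 arrays limma called 42 of 16495 probes higher (0.255%), and 4 of them were members, S100A8, COL8A1, IL13RA2 and DNAAF3, a factor for assembly of ciliary dynein arms, while 0 members were lower. That comparison contains the arrays that chose the set, and nothing is read from its count.

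**Figure D4:**
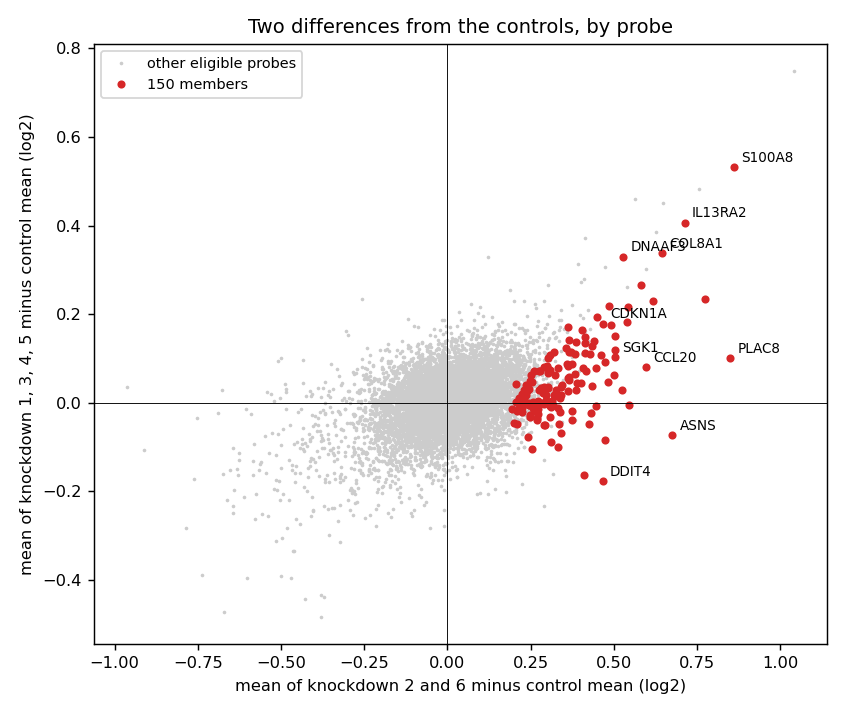
For each eligible probe, the mean of knockdown 2 and 6 minus the control mean (horizontal, log2) against the mean of knockdown 1, 3, 4 and 5 minus the control mean (vertical, log2), with the 150 members in red. Both axes share the 6 controls; members such as ASNS and DDIT4 lie below 0 on the vertical axis, and S100A8, IL13RA2 and COL8A1 lie well above it.

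The pair also differed from the other arrays in measures of the whole array. Knockdown 2 and 6 had 17360 and 17680 detected probes, the highest of the 12, where the others had 15681 to 16985. Their median signals were 181.7 and 175.3, the latter below every other array, where the others had 176.6 to 201.2. Array weights estimated by limma over all 12 arrays were 0.48 and 0.49 for the pair and 0.85 to 1.37 for the rest, and in a principal component analysis of 8776 eligible probes without the members, the first component (30.7% of the variance) placed the pair at 0.55 and 0.61 and the rest between -0.36 and 0.12. The part of amplification, RNA quality, cell density or any other step in the members' level was not tested, and no label gives these for the samples.

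**Figure D5:**
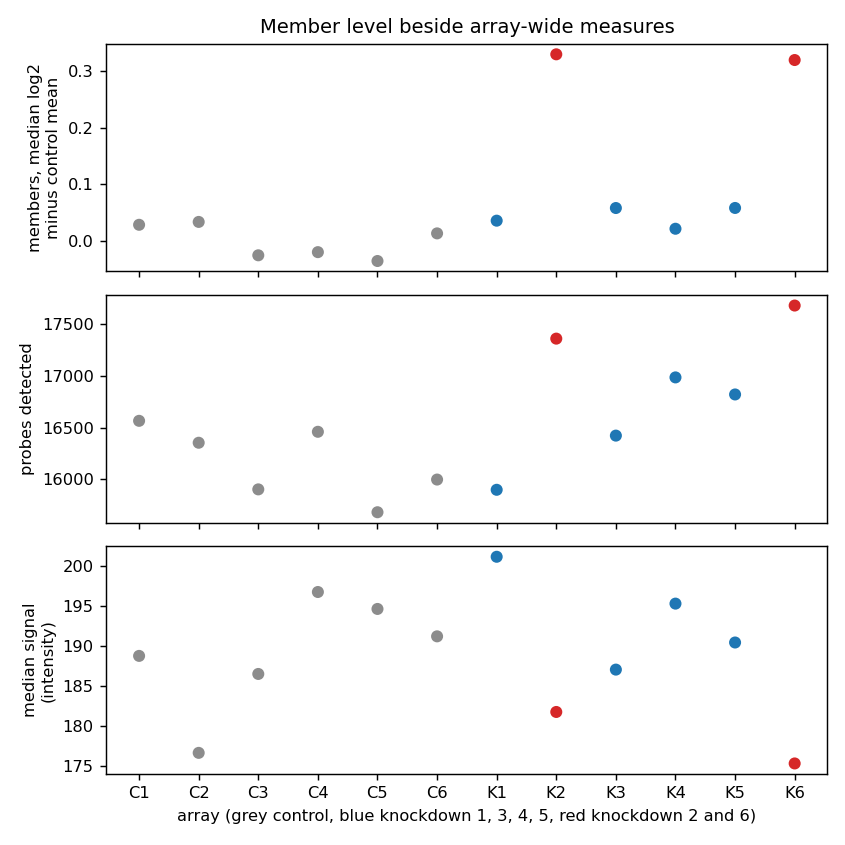
Measures on each array: the median log2 difference of the 150 members from the control mean, the number of detected probes, and the median linear signal. Knockdown 2 and 6 (red) have the highest member level, 0.33 and 0.32, and the most detected probes, 17360 and 17680.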

How the data were processed

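Total RNA of 12 samples was measured on Illumina bead arrays, 6 per group as the titles give them. Per the file headers, the deposited tables gave each probe a raw signal intensity and a detection p-value on every array, and the authors' normalised intensity. The latter equalled a quantile normalisation of the signal to within 3.33e-06 (median 188.8), so it was linear and uncentred. Not given in the sources used here were the probes' build and the role of limma, which the submitters' processing notes name.

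The members were chosen on log2 of the authors' values. The members, gene lists and tests were chosen with earlier results of these data known. Of all probes, 30113 had 1 symbol, 8 several and 17202 none; symbols were updated through RefSeq for 30074. Named were TIMP1, the 25 genes of highest gap, up to 4 members per list, the probes at the limit and the 8 largest opposite gaps; others are marked in the text.

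Tests used neqc values (offset 16; limma 3.58.1, R 4.3.3) of 16495 probes with detection p under 0.05 on at least 6 of 12 arrays, with lmFit, eBayes and Benjamini-Hochberg adjustment; all tests were two-sided. Fold changes of dim probes are stretched by the background correction and shrunk by the offset, and a shift of all probes together is lost in quantile normalisation. On simulated data for knockdown 1, 3, 4 and 5 against control (16495 probes), the fit recovered 9 of 40 probes changed by 0.2 (log2), 29 by 0.4, 26 by 0.6, 33 by 0.8 and 39 by 1, with 11 false calls. The number of arrays limits the precision. Alternatives covered background correction, scaling, detection filter, replicate block, trend and array weights, left-out arrays, signal minimum and score. Figures were drawn with matplotlib 3.10.9.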

Additional observations from a re-analysis of the deposited data

Results flagged for a closer look

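Of 130 groups of control or knockdown arrays tested for a single sample far from the rest of its group, 4 had one, and chance alone gives about 1 in 20. In 3 of them control 1 stood above the other 5 controls. It read 9.70 for ITGA5, the fibronectin receptor subunit, where the others lay between 9.55 and 9.58. It read 12.49 for YARS1, where the others lay between 12.36 and 12.40, and 9.29 for KLHL3, a substrate adaptor of a ubiquitin ligase, where they lay between 9.01 and 9.10. The fourth was S100A8, for which control 6 read 8.70 and the other controls 8.19 to 8.34.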

How the results depend on the processing

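Under the alternatives, the count of members called between knockdown 1, 3, 4 and 5 and control, 0 by limma, became 4 with all 12 arrays (S100A8, COL8A1, IL13RA2 and DNAAF3), 3 with detection at p under 0.01 on all arrays (PLAC8, RAPGEF5 and COL8A1) and 3 with an intensity trend and robust fit (PLAC8, COL8A1 and IL13RA2). Leaving out 1 array gave 0 to 2 members: S100A8 and IL13RA2 without control 6, and COL8A1 and HERC5 without knockdown 1. All probes called, 2 at first, numbered 50 with 12 arrays, 13 with strict detection, 22 with trend and robust fit, 4 with array weights, 1 without background correction and with the authors' values, and 0 with median scaling, without a detection filter and at an adjusted p under 0.01. Leaving out 1 array gave 0 to 27, with 14 without control 6 and 27 without knockdown 1. With the replicate number as a block, 0 probes and 0 members were called; same-numbered samples had correlations of their deviations from -0.11 to 0.19, over 0.1 in 3 of 6 pairs, and the labels name no shared source, so the numbers were not taken as pairs. Of the 150 members, 87 were also chosen with a signal minimum of 200, 78 with a minimum of 800 and 97 when the median of the other 10 arrays was subtracted in place of the highest. The 22 members whose other 4 knockdown arrays did not overlap the controls became 7 with the raw signal scaled by the median. The cause of these changes was not tested. TIMP1 kept its direction with all 12 arrays, without background correction, with median scaling, with the block and without each array, from -0.16 to -0.215. In simulated data for the same 10 arrays and 16495 probes, 9 of 40 probes changed by 0.2 (log2) were recovered.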

Other observations

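Other probes were low in knockdown 2 and 6. Of the 8926 eligible probes, 654 (7.33%, 619 genes) had both arrays below all 10 others. The largest such gap was that of TRAF4, an adaptor protein of receptor signalling, which read 8.35 and 8.18 in the pair and 8.90 to 9.41 in the rest. NOP56, a core protein of the small nucleolar ribonucleoproteins that guide ribosomal RNA methylation, read 11.37 and 11.33, and 11.64 to 11.87 in the rest. MEPCE, which caps the 7SK RNA, read 9.81 and 9.76, and 10.06 to 10.48 in the rest. SPATA31A1, CXCL3, GPR180, SCARNA27 and ANXA2R-OT1 completed the 8 largest.

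By list, 19 of 90 probes of ribosome biogenesis (21.1%) were below in this way, 22 of 153 of the spliceosome (14.4%), 7 of 26 of NRF2 targets and metallothioneins (26.9%), and 9 of 55 of long noncoding RNAs and hosts of small nucleolar RNAs (16.4%). The first 3 of these lists held 0 of the 150 members, where the share of members over all eligible probes was 1.68%. These probes were chosen by the same arrays as the members, so the counts are a description.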
